A study of Mus musculus with 9 samples.

Results

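The genes of the proteasome were followed across macrophages of a mouse fibrosarcoma and of the peritoneum. Members were all genes on the array whose symbol began with Psma, Psmb, Psmc, Psmd, Psme, Psmf or Psmg and a digit, without the inducible catalytic subunits Psmb8, Psmb9 and Psmb10. This gave 46 genes, measured by 67 spots of 58 probes, and 44 of them were among the 16464 genes tested. Psma8, the α subunit of testis, and Psmb11, the β subunit of thymus, were not well above background on any of the 9 arrays and were not tested. Psmc3ip, which has a member's name but is a cofactor of meiotic recombination and not a subunit, was also among the 44, which left 43 subunits and cofactors.

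The 9 samples formed 3 groups of 3: F4/80high tumor-associated macrophages (F4/80high TAM), F4/80low tumor-associated macrophages (F4/80low TAM), and control macrophages of the peritoneal exudate (PEC). The antigen used to divide the TAM is the product of Adgre1, a surface protein of mouse macrophages. All mice were C57BL/6J, no other treatment or allele is named, and the labels give neither the age of the mice nor any further marker of the sort. Replicates are described as biological, with no statement that each came from its own animal, so the p-values cover the variation among these arrays, and that variation may be technical. RNA was hybridised to single-colour Agilent arrays, and a level below is the log2 intensity of a probe minus the 75th percentile of its array. Levels of different genes come from different probes and are not comparable, so each gene is compared between groups only. Sums over marker genes and differences of genes within an array are likewise compared between groups only. Such a sum gives most weight to the probes with the highest signal.

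The proteasome degrades proteins tagged with ubiquitin. Its 20S core is a barrel of outer α rings, which gate the entrance, and inner β rings, which hold the cutting sites. The 19S cap, made of a base with ATPases and a lid, binds, unfolds and de-ubiquitinates substrates, whereas the PA28 and PA200 caps open the core without ubiquitin. In macrophages, interferon is known to exchange the constitutive cutting subunits for inducible ones and to raise PA28α and PA28β, which changes the peptides available to class I molecules of the major histocompatibility complex.

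The PEC array of replicate 1 was hybridised on the slide that carried all 6 TAM arrays, and the other 2 PEC arrays lay on a second slide. Of the 44 members, 39 (88.6%) were lower on PEC replicate 1 than on both other PEC arrays, against 46.4% of all genes, with a median difference of -0.38 for the members and -0.07 for all genes. Adgre1, which should divide the TAM, was lower by 2.99 in F4/80low TAM than in PEC (log2) and differed by 0.05 between F4/80high TAM and PEC. F4/80low TAM also carried markers of other cells, and some of these were higher in F4/80high TAM than in PEC too. The summed linear level of 8 neutrophil genes was 221 to 323 in F4/80high TAM, 1830 to 6521 in F4/80low TAM and 118 to 154 in PEC. Of the 8, 7 were called higher in F4/80low TAM than in PEC, and 3 higher and 1 lower in F4/80high TAM than in PEC. The sum of 8 T-cell genes was 13.2 to 17.6 in F4/80high TAM, 23.4 to 44.2 in F4/80low TAM and 7.05 to 12 in PEC. Here 7 of 8 were called higher in F4/80low TAM than in PEC, and 3 higher and 1 lower in F4/80high TAM than in PEC. Cd3d was well above background on 3 F4/80low TAM arrays and on 0 others. The sum of 8 macrophage genes was 849 to 1301 in F4/80high TAM, 570 to 850 in F4/80low TAM and 947 to 1143 in PEC. Of these, 1 was called higher and 4 lower in F4/80low TAM than in PEC. In F4/80high TAM against PEC, 2 were called higher and 1 lower. Among the 4 lower in F4/80low TAM was Mertk, which was not well above background on any F4/80low TAM array. Of 6 NK-cell genes 3 were tested, and all 3 were called higher in F4/80low TAM than in PEC and 0 in F4/80high TAM against PEC, with sums of 0.199 to 0.272 in F4/80high TAM, 8.58 to 19.6 in F4/80low TAM and 0.108 to 0.203 in PEC. Both TAM groups also carried more cell-cycle signal. All 7 tested of 10 cell-cycle genes were called higher than in PEC in each TAM group, and their sum was 17.7 to 44.3 in F4/80high TAM, 8.89 to 101.5 in F4/80low TAM and 1.10 to 4.47 in PEC. Of 9 heat shock and handling genes, 5 were higher and 2 lower in F4/80high TAM against PEC, and 5 higher and 1 lower in F4/80low TAM against PEC. Over all genes, 25% were higher and 28% lower in the first comparison, and 22.7% and 29.2% in the second. The part of these cells and states in the members' values was not tested. In bulk samples, fewer cells of a type and less RNA per cell cannot be told apart.

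The PA28 pair, Psme1 and Psme2, rose in F4/80high TAM. Of the constitutive cutting subunits, Psmb5 and Psmb6 were lower in both TAM groups than in PEC. Psmb7 was higher in F4/80high TAM than in PEC (log2 fold change 0.56) and not called in F4/80low TAM. Printed below are the windows around the start sites of Psme1, Psme2, Psmb5 and Psmb6. They run from 250 bases before to 50 bases after the start site, are from RefSeq (GRCm38.p6), and are written along the gene's strand. Capitals mark a match to the interferon-stimulated response element (a pair of GAAA with any 2 bases between) in Psme1 and to the antioxidant response element (TGACNNNGC) in Psmb5 and Psmb6.
Psme1, chr14:55578244-55578543 (plus strand): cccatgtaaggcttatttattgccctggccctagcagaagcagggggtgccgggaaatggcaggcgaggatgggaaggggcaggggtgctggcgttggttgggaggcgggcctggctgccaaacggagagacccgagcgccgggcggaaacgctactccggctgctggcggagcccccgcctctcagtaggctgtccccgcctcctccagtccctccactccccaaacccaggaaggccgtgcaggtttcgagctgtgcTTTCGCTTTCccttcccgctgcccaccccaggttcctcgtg
Psme2, chr14:55590972-55591271 (minus strand): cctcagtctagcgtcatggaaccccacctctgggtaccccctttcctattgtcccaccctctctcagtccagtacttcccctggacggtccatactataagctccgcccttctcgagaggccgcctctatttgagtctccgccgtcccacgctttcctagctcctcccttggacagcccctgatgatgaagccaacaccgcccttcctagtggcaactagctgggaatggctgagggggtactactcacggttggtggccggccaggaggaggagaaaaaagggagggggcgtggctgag
Psmb5, chr14:54617946-54618245 (minus strand): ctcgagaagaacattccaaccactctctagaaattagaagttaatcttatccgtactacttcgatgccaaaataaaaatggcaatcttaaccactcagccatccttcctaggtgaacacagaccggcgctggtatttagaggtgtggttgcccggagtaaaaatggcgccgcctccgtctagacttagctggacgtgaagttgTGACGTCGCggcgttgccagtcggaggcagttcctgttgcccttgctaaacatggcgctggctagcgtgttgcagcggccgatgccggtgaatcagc
Psmb6, chr11:70525107-70525406 (plus strand): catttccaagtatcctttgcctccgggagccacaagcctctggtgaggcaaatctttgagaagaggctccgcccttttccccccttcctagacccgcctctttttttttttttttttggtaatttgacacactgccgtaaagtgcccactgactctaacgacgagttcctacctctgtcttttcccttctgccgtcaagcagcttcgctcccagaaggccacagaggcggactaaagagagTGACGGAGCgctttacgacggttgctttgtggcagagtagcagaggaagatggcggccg

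Windows were found for 38 of the 46 members, and both strands were searched. The interferon-stimulated element matched in 5 of the 38 (13.2%), namely Psmb3, Psmd4, Psmd9, Psme1 and Psmg4, against 3.99% of 27025 genes. In Psme1 the match began 10 bases after the start site. The antioxidant element matched in 6 (15.8%), namely Psmb5, Psmb6, Psmc6, Psmd9, Psmd12 and Psme4, against 14% of all genes. The gamma-activated site (TTCNNNGAA) matched in Psmd2 and Psmg1, which is 5.26% of the members and 9.55% of all genes. The Psme2 window printed above held none of the 3 motifs. A match describes letters in this window and is not evidence of binding.

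A second set of sequences is shown because it limits the values of 2 members. The only Psme3 probe and the only Psma5 probe of the array hold a repeat of alternating G and T, marked in capitals in these stretches of the probes (positions from the 5′ end of the probe; coordinates of the whole probe on mm9, per the file headers).
Psme3 probe, chr11:101184289-101184348, bases 23 to 52: caTGTGTGTGTGTGTtcGTGTGTGTGTGTt
Psma5 probe, chr3:108082777-108082836, bases 31 to 60: catggaaaatatccagtataTGTGTGTGTG

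The longest run was 13 bases in the Psme3 probe and 10 bases in the Psma5 probe, and no other member's probe had one longer than 6. Probes of other genes with such a run shared a pattern. All 89 probes with a run of 14 bases or more were called higher in F4/80high TAM than in PEC, with a median log2 fold change of 2.08. Of 30 probes with a run of 12 or 13 bases, 25 were higher and 0 lower, with a median of 1.94. Of 49 probes with a run of 10 or 11 bases, 27 were higher and 8 lower, with a median of 1.07. Probes with shorter runs lay near 0, at a median of 0.16 for 101 probes with 8 or 9 bases and -0.10 for 791 probes with 6 or 7 bases. The part of the repeat in the values of Psme3 and Psma5 was not tested, and the main counts over the members are given below with and without both. Run lengths by gene are given for the members' probes only, and not for other genes named below, Psmb8, Psmb9 and Psmb10 included.

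In F4/80high TAM against PEC, 10 of the 44 members were called higher and 6 lower at an adjusted p under 0.05, against 25% of all genes higher and 28% lower (53.1% in either direction). The 10 were Psme1, Psme2, Psme3, 4 α subunits, Psmb7, Psmd10 and Psmd11, and the 6 were Psmb5, Psmb6, Psmd8, Psmg1, Psmg2 and Psmg4. The median log2 fold change was 0.04 for the members and 0.00 for all genes, and its sign turned with the scaling. Without Psma5 and Psme3, 8 of 42 were higher and 6 lower, with a median of 0.01. The split was 8 higher and 8 lower with quantile normalization (median -0.06), against 22.7% and 29.1% of all genes. With median centring it was 4 and 3 (-0.12), against 17.9% and 27.3%. With normexp background correction it was 7 and 9 (-0.16), against 23.7% and 29.4%. With the slide as a block it was 10 and 0, against 16.5% and 17.7%. The members' median was 0.31 with that block and on slide 1 alone. Leaving out PEC replicate 1, F4/80high TAM replicate 2 or F4/80high TAM replicate 3 left 5 higher, against 24.9%, 20.4% and 22% of all genes. Leaving out PEC replicate 2 or 3 left 2 lower, against 23.8% and 22.8%. All F4/80high TAM arrays lay above all PEC arrays for 15 members (13 without Psma5 and Psme3) and below them for 9, against 31.2% and 34% of all genes. In F4/80low TAM against PEC, 0 members were higher and 18 lower, against 22.7% and 29.2% of all genes (51.9% in either direction), and the median was -0.41 for the members and -0.09 for all genes. Without Psma5 and Psme3 the counts were again 0 and 18, of 42. The split was 3 higher and 15 lower with quantile normalization, against 23.2% and 26.1% of all genes. With a 75th percentile over detected probes it was 3 and 12, against 30.4% and 21.8%. In both, 2 were higher without Psma5 and Psme3. With median centring the split was 0 and 27, against 11.7% and 41.2%. With the slide as a block 3 were lower, against 16.4%. Without PEC replicate 3, 9 were lower, against 22.5%, and without PEC replicate 2, 11 were, against 23.9%. All F4/80low TAM arrays lay above all PEC arrays for 0 members and below them for 19, against 26.1% and 33.2% of all genes.

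In F4/80high TAM against F4/80low TAM, 16 were higher and 0 lower, against 18.6% and 14% of all genes (32.6% in either direction), or 14 of 42 without Psma5 and Psme3. The median of that comparison was 0.51 for the members and 0.08 for all genes. A log2 fold change above 0 was found for 42 of the 44 members, the exceptions being Psmb5 and Psmd5. For 30 of the 44 members every F4/80high TAM array lay above every F4/80low TAM array (28 of 42 without Psma5 and Psme3), against 27% of all genes, and for 0 of 44 the reverse held, against 19.7% of all genes. The number called higher was 5 without F4/80high TAM replicate 2 and 8 without F4/80high TAM replicate 1 or 3. It was 7 without F4/80low TAM replicate 2 and 9 without F4/80low TAM replicate 1. Over all genes, 13.3% were higher without F4/80high TAM replicate 2, and 14.9% and 15.4% without F4/80high TAM replicates 1 and 3. Without F4/80low TAM replicates 2 and 1 the shares were 16.3% and 17%.

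The size of this offset depended on the scaling. With quantile normalization the median of all genes was -0.02 and that of the members 0.28, with median centring 0.40 and 0.83, and with a 75th percentile taken over probes detected on all arrays -0.17 and 0.27. The members' median stood above that of all genes under each of these. Of the 44 members, 5 were called higher with quantile normalization, 19 with median centring and 6 with the percentile over detected probes. Over all genes 16.2%, 24.7% and 12.6% were called higher in the same order. Under each scaling 0 members were lower, against 16.5%, 7.85% and 21.6% of all genes. Without Psma5 and Psme3 the numbers higher were 4, 17 and 4.

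**Figure D1:**
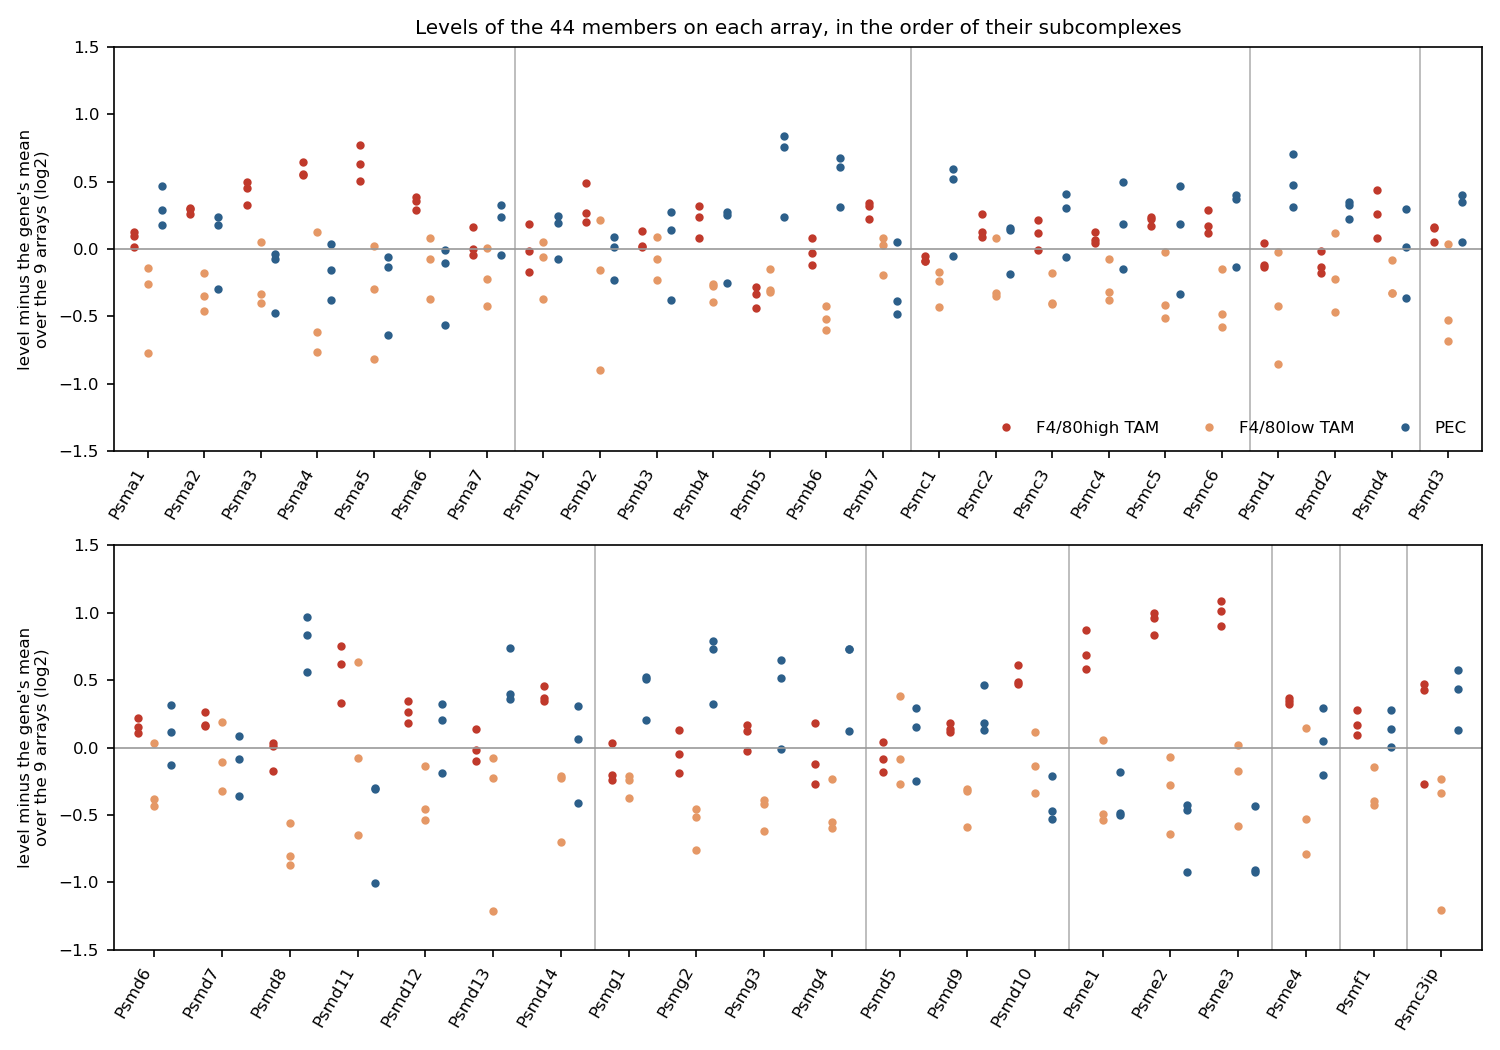
Levels of the 44 tested members on each array, as the difference from the gene's own mean over the 9 arrays (log2, y axis), in the order of the subcomplexes (grey lines separate them). Red points are F4/80high TAM, orange points F4/80low TAM and blue points PEC, 3 arrays each. In 30 of the 44 members all red points lie above all orange points.

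**Figure D2:**
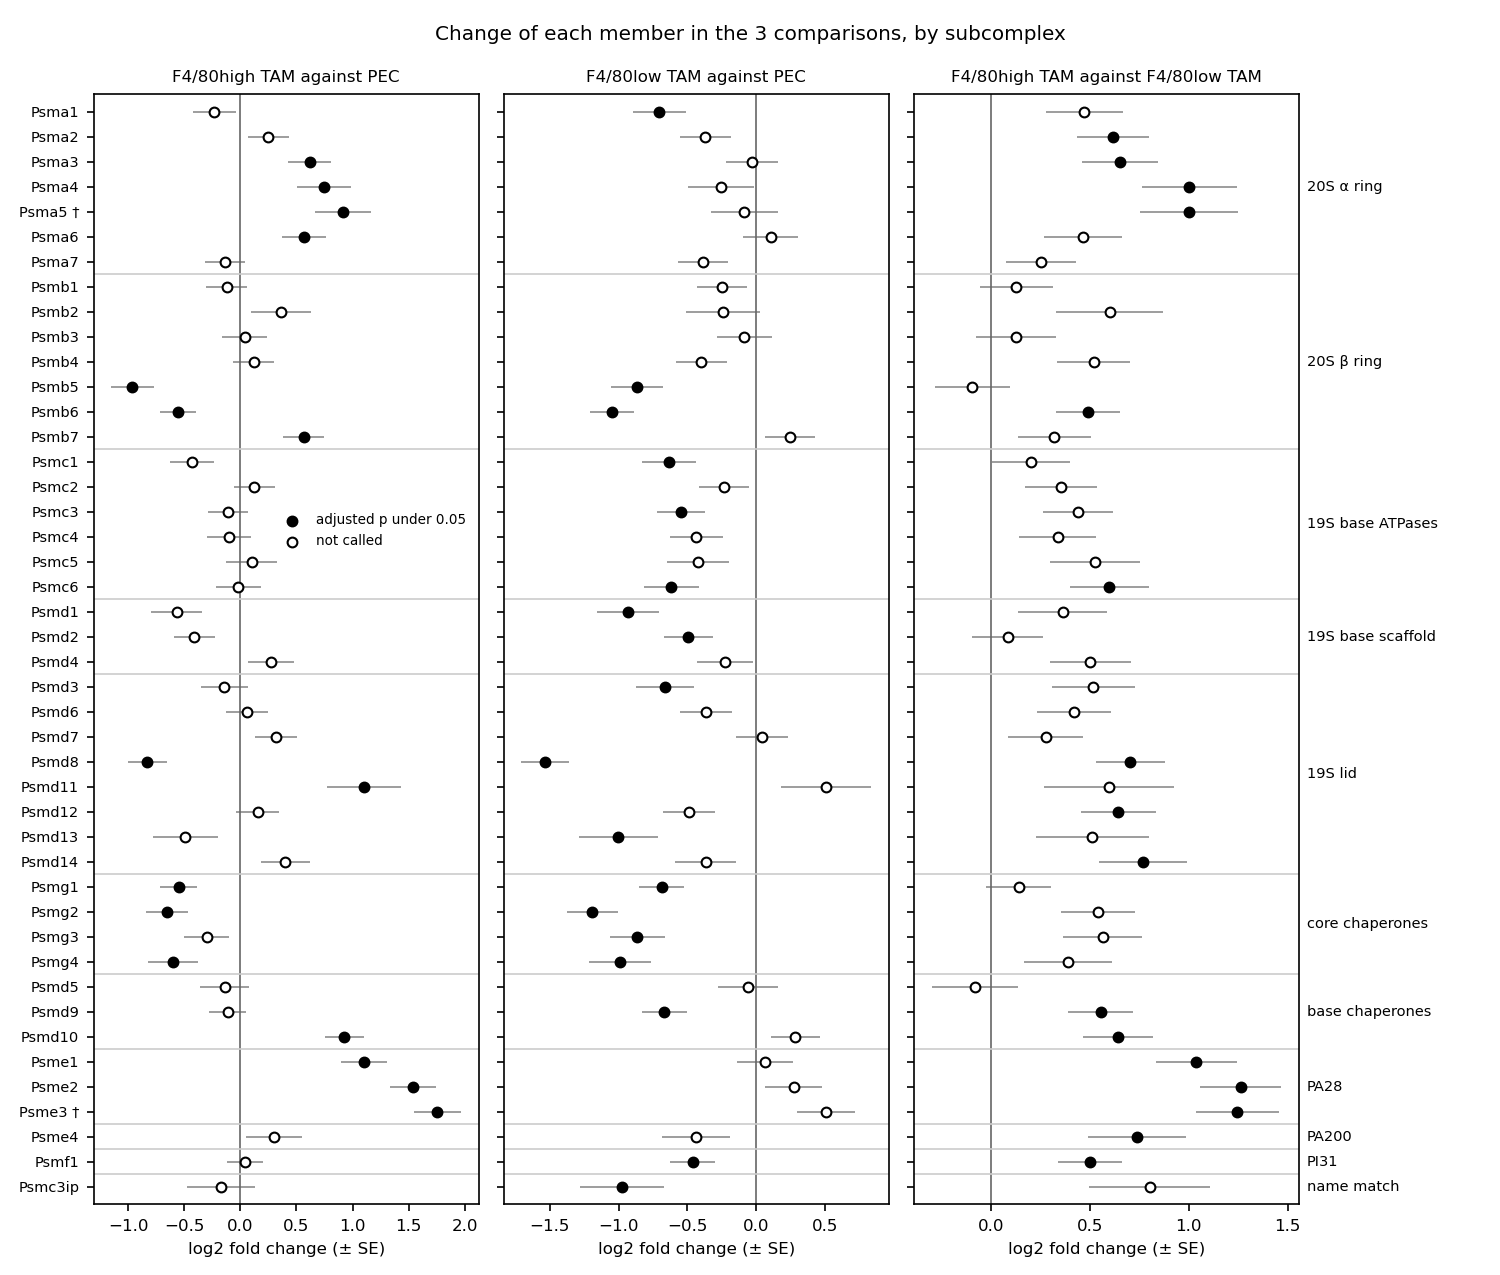
Log2 fold change of each tested member with its SE (x axis) in F4/80high TAM against PEC, F4/80low TAM against PEC, and F4/80high TAM against F4/80low TAM, grouped by subcomplex. Filled points passed an adjusted p of 0.05 and open points did not, and a dagger marks the 2 members whose probe holds a repeat. The filled points number 16, 18 and 16 from left to right, and those of the middle panel all lie below 0.

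The α ring gates the core. Of its 7 tested subunits, 4 were higher and 0 lower in F4/80high TAM than in PEC, with a median of 0.57 (3 of 6 and a median of 0.41 without Psma5). Over all genes, 25% were higher and 28% lower there. Psma4 (α3) had levels of 5.07, 5.08 and 5.16 in F4/80high TAM, 3.75, 3.90 and 4.65 in F4/80low TAM and 4.14, 4.37 and 4.56 in PEC. The F4/80high TAM arrays lay close together and above all 6 other arrays, whereas F4/80low TAM and PEC overlapped. Psma4 in F4/80high TAM was 1.68-fold higher than in PEC, a log2 fold change of 0.75 with an SE of 0.24 (adjusted p 0.0264). Over F4/80low TAM it was 2.00-fold higher (1.00, SE 0.24, adjusted p 0.0114). In brackets below, the log2 fold change comes first, then its SE where given and the adjusted p of limma. Against F4/80low TAM it was called in all 18 alternative analyses in which it was tested. Against PEC it was called in 11 of 20, and not on slide 1 alone (0.96, adjusted p 0.0892).

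The probe of Psma5 (α5), with its repeat, read 6.32, 6.44 and 6.59 in F4/80high TAM, 5.00, 5.51 and 5.83 in F4/80low TAM and 5.18, 5.68 and 5.75 in PEC. The F4/80high TAM arrays were again above the rest. Its log2 fold changes of 0.92 against PEC (SE 0.25, adjusted p 0.0118) and 1.00 against F4/80low TAM (SE 0.25, adjusted p 0.0128) stand beside medians of 1.07 and 0.62 for other probes with a run of 10 or 11 bases. Psma3 (0.62, adjusted p 0.0221) and Psma6 (0.57, adjusted p 0.0359) also rose against PEC. These calls held in 14 of 20 alternatives for Psma3 and in 10 of 20 for Psma6. The call of Psma6 was lost with the replicate block (adjusted p 0.0522). Against PEC that block matches same-numbered samples, though PEC samples did not pair. Psma2 (0.62, adjusted p 0.0291) and Psma3 (0.65, adjusted p 0.0277) rose against F4/80low TAM, calls that held in 10 and 11 of 18 alternatives. The ring had 1 call in F4/80low TAM against PEC, Psma1 (-0.70, adjusted p 0.0144), and the other 6 subunits ranged from -0.39 to 0.10. Over all genes, 22.7% were higher and 29.2% lower there.

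The β ring holds the 3 cutting sites, β1 (Psmb6, caspase-like), β2 (Psmb7, trypsin-like) and β5 (Psmb5, chymotrypsin-like). Psmb5 had levels of 7.85, 7.75 and 7.90 in F4/80high TAM, 7.88, 7.86 and 8.03 in F4/80low TAM and 8.42, 8.94 and 9.02 in PEC. All 6 TAM arrays lay below all 3 PEC arrays, and the TAM groups overlapped. Psmb5 fell 1.95-fold in F4/80high TAM against PEC (-0.96, SE 0.19, adjusted p 0.00237) and 1.82-fold in F4/80low TAM against PEC (-0.87, SE 0.19, adjusted p 0.00465). A second, dimmer probe gave -1.22 in F4/80high TAM and -0.78 in F4/80low TAM. On slide 1 alone neither fall was called (-0.59, adjusted p 0.0907, and -0.49, adjusted p 0.15). Between the TAM groups Psmb5 differed by -0.09, with a 95% interval of -0.52 to 0.33.

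Psmb6 had levels of 7.85, 7.75 and 7.65 in F4/80high TAM, 7.17, 7.26 and 7.35 in F4/80low TAM and 8.09, 8.39 and 8.45 in PEC. The 3 groups did not overlap, with PEC highest and F4/80low TAM lowest. It was 2.07-fold lower in F4/80low TAM than in PEC (-1.05, SE 0.16, adjusted p 0.000734), a call that held on slide 1 alone (-0.83, adjusted p 0.037) and in all 21 alternatives. It was also 1.47-fold lower in F4/80high TAM than in PEC (-0.56, SE 0.16, adjusted p 0.017), which was not called on slide 1 alone (-0.34, adjusted p 0.3), and 1.40-fold higher than in F4/80low TAM (0.49, adjusted p 0.0445), which was lost with the replicate block (adjusted p 0.0661). The Psmb6 call between the TAM groups held in 6 of 19 alternatives. Psmb7 moved the other way, 1.48-fold higher in F4/80high TAM than in PEC (0.56, SE 0.18, adjusted p 0.0275). That Psmb7 call held in 12 of 20 alternatives. The difference of Psmb7 in F4/80low TAM from PEC was 0.24, with an interval of -0.17 to 0.66. The non-catalytic β subunits Psmb1, Psmb2, Psmb3 and Psmb4 had 0 calls in the 3 comparisons and lay between -0.12 and 0.36 in F4/80high TAM against PEC. Over all genes, 53.1% were called in F4/80high TAM against PEC, 51.9% in F4/80low TAM against PEC and 32.6% between the TAM groups.

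At each cutting site the inducible subunit can replace the constitutive one, so the difference of the pair was taken within each array, expressed relative to its mean in PEC. For β1 (Psmb9 minus Psmb6) this was 2.95, 3.40 and 3.14 in F4/80high TAM, 1.69, 2.74 and 2.21 in F4/80low TAM and 0.21, -0.38 and 0.17 in PEC. For β5 (Psmb8 minus Psmb5) it was 2.62, 3.03 and 2.72 in F4/80high TAM, 1.01, 1.85 and 1.44 in F4/80low TAM and 0.23, -0.29 and 0.06 in PEC. At both sites F4/80high TAM was highest and PEC lowest, with no overlap between groups. For β2 (Psmb10 minus Psmb7) it was 1.33, 1.80 and 1.67 in F4/80high TAM, -0.64, 0.59 and 0.23 in F4/80low TAM and 0.03, 0.09 and -0.12 in PEC. Here F4/80high TAM stood apart and F4/80low TAM spread on both sides of PEC.

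A scaling constant cancels in a difference within an array. The mean shift in F4/80high TAM against PEC was 3.17 at β1, 1.60 at β2 and 2.79 at β5, and on slide 1 alone 2.96, 1.57 and 2.56. The shift in F4/80low TAM against PEC was 2.21, 0.06 and 1.43 at the same sites, and on slide 1 alone 2.01, 0.03 and 1.21. An exact permutation test (two-sided, 3 arrays against 3) gave p = 0.1, the smallest it allows, for 8 of the 9 comparisons (0.112 after adjustment over the 9), and 0.9 for β2 in F4/80low TAM against PEC. Taken singly in F4/80high TAM against PEC, the inducible Psmb9 rose by 2.61 (adjusted p 8.44e-05), Psmb10 by 2.16 (adjusted p 0.000142) and Psmb8 by 1.83 (adjusted p 0.000203), beside -0.56 for Psmb6, 0.56 for Psmb7 and -0.96 for Psmb5.

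**Figure D3:**
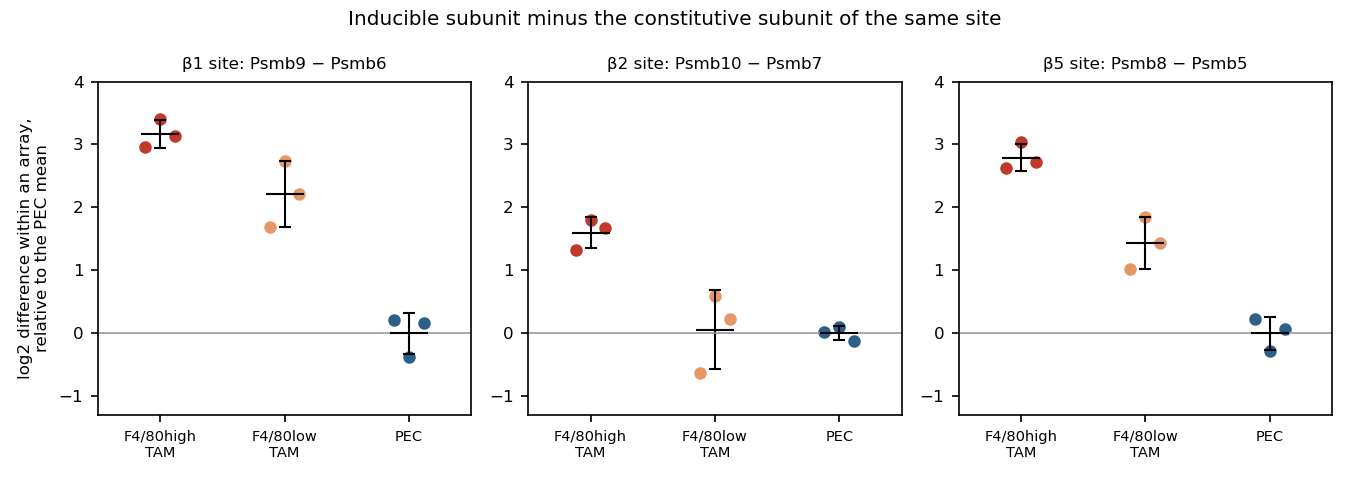
Within-array difference of the inducible and the constitutive subunit of each cutting site, in log2 units relative to the PEC mean (y axis), with points for the arrays of F4/80high TAM, F4/80low TAM and PEC and black bars for mean ± SD (n = 3). At β1 and β5 the groups step down from F4/80high TAM to PEC, and at β2 F4/80low TAM lies around PEC.

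The 6 ATPases of the 19S base, Psmc1 to Psmc6, unfold substrates and feed them into the core. None was called in F4/80high TAM against PEC (53.1% of all genes were), where they ranged from -0.43 to 0.12 with a median of -0.06. In F4/80low TAM against PEC, Psmc1 (-0.63, adjusted p 0.024), Psmc3 (-0.55, adjusted p 0.028) and Psmc6 (-0.62, adjusted p 0.0276) fell, the other 3 lay between -0.44 and -0.23, and the median of the 6 was -0.49. Over all genes, 29.2% were lower there. None of these 3 falls was called on slide 1 alone. Between the TAM groups 1 of 6, Psmc6, was called higher in F4/80high TAM (0.60, adjusted p 0.0456), against 18.6% of all genes. The call was lost with the replicate block (adjusted p 0.0599) and held in 7 of 18 alternatives. For all 6 every F4/80high TAM array lay above every F4/80low TAM array, against 27% of all genes. Of the base scaffold subunits Psmd1 and Psmd2 and the ubiquitin receptor Psmd4, Psmd1 (-0.93, adjusted p 0.00744) and Psmd2 (-0.49, adjusted p 0.0448) fell in F4/80low TAM against PEC, and none was called in the other comparisons. With the slide as a block both falls were lost (adjusted p 0.111 for Psmd1 and 0.254 for Psmd2). With the replicate block Psmd2 was lost as well (adjusted p 0.0548; called in 5 of 20 alternatives), and Psmd1 was called lower in F4/80high TAM against PEC (-0.57, adjusted p 0.0355 with that block and 0.0571 without it).

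The lid carries the de-ubiquitinating enzyme Psmd14 and its scaffold. Psmd8, a lid subunit, had levels of 5.11, 5.13 and 4.92 in F4/80high TAM, 4.53, 4.29 and 4.23 in F4/80low TAM and 5.66, 6.06 and 5.93 in PEC. The groups did not overlap, with PEC highest and F4/80low TAM lowest. Psmd8 was 2.90-fold lower in F4/80low TAM than in PEC (-1.53, SE 0.17, adjusted p 0.000123), called in all 21 alternatives and on slide 1 alone (-1.31, adjusted p 0.00963). It was 1.78-fold lower in F4/80high TAM than in PEC (-0.83, SE 0.17, adjusted p 0.00329), not called on slide 1 alone (-0.61, adjusted p 0.105), and 1.63-fold higher in F4/80high TAM than in F4/80low TAM (0.70, adjusted p 0.0128).

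Psmd11, a lid subunit known to raise proteasome assembly in human embryonic stem cells, took the opposite course. It had levels of 3.97, 4.26 and 4.40 in F4/80high TAM, 3.00, 4.28 and 3.57 in F4/80low TAM and 2.64, 3.34 and 3.34 in PEC. F4/80high TAM lay above all PEC arrays, and F4/80low TAM overlapped both. Psmd11 was 2.15-fold higher in F4/80high TAM than in PEC (1.10, SE 0.33, adjusted p 0.0192) and was called on slide 1 alone (1.57, adjusted p 0.0435), but not without PEC replicate 1, F4/80high TAM replicate 2 or F4/80high TAM replicate 3. Psmd11 differed in F4/80low TAM from PEC by 0.51 (interval -0.24 to 1.25).

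Psmd13, also of the lid, had levels of 4.34, 4.10 and 4.18 in F4/80high TAM, 3.98, 2.99 and 4.12 in F4/80low TAM and 4.56, 4.60 and 4.94 in PEC. F4/80low TAM replicate 2 was far below the other arrays, and all 6 TAM arrays were below PEC. Psmd13 fell by 1.00 on the log2 scale in F4/80low TAM against PEC (SE 0.29, adjusted p 0.0165), not called on slide 1 alone (-0.86, adjusted p 0.194). Psmd3 also fell in F4/80low TAM against PEC (-0.66, adjusted p 0.0266). Psmd14 (0.77, adjusted p 0.0259) and the scaffold subunit Psmd12 (0.64, adjusted p 0.0285) were higher in F4/80high TAM than in F4/80low TAM beside Psmd8. A second, dimmer Psmd12 probe stood at 0.37 there (adjusted p 0.356 over all probes). The call of Psmd14 held in 11 of 18 alternatives and that of Psmd12 in 9 of 18. Of the 8 lid subunits, 1 was higher and 1 lower in F4/80high TAM against PEC (25% and 28% of all genes), 3 were lower in F4/80low TAM against PEC (29.2% of all genes), and 3 were higher in F4/80high TAM against F4/80low TAM (18.6% of all genes).

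The assembly chaperones Psmg1 to Psmg4 help the α ring form and are not part of the finished particle. All 4 fell in F4/80low TAM against PEC (median -0.93), where 29.2% of all genes were lower. In F4/80high TAM against PEC 3 of 4 fell (median -0.57), where 28% of all genes were lower. Psmg2 had levels of 0.76, 0.90 and 1.08 in F4/80high TAM, 0.50, 0.44 and 0.19 in F4/80low TAM and 1.28, 1.68 and 1.74 in PEC. Its groups did not overlap, with F4/80low TAM lowest and PEC highest. Psmg2 was 2.28-fold lower in F4/80low TAM than in PEC (-1.19, SE 0.19, adjusted p 0.000795), called in all 21 alternatives (slide 1 alone -0.90, adjusted p 0.0404), and 1.57-fold lower in F4/80high TAM than in PEC (-0.65, adjusted p 0.016; slide 1 alone -0.36, adjusted p 0.317).

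Psmg4 had levels of 1.81, 1.51 and 1.36 in F4/80high TAM, 1.04, 1.08 and 1.40 in F4/80low TAM and 1.76, 2.37 and 2.37 in PEC. Neighbouring groups overlapped, except that F4/80low TAM lay wholly below PEC. Psmg4 fell by 0.99 in F4/80low TAM against PEC (SE 0.22, adjusted p 0.00532) and by 0.60 in F4/80high TAM against PEC (SE 0.22, adjusted p 0.0454). The second call was lost with the replicate block (adjusted p 0.0702) and held in 8 of 20 alternatives. Psmg1 fell by 0.69 (adjusted p 0.00741) and Psmg3 by 0.86 (adjusted p 0.00615) in F4/80low TAM against PEC. Psmg1 also fell by 0.55 in F4/80high TAM against PEC (adjusted p 0.02), where Psmg3 stood at -0.30 (adjusted p 0.234). Of these chaperones, Psmg2 alone was called on slide 1 alone in F4/80low TAM against PEC, and none in F4/80high TAM against PEC.

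Of the chaperones that assemble the base, Psmd10 (gankyrin, also known as an oncoprotein) stood apart. Psmd10 had levels of 3.23, 3.35 and 3.21 in F4/80high TAM, 2.85, 2.40 and 2.60 in F4/80low TAM and 2.27, 2.53 and 2.21 in PEC. F4/80high TAM lay above all other arrays, and the other 2 groups overlapped. It was 1.90-fold higher in F4/80high TAM than in PEC (0.93, SE 0.18, adjusted p 0.00192; second probe 1.19), called in all 21 alternatives and on slide 1 alone (0.99, adjusted p 0.0268), and 1.56-fold higher than in F4/80low TAM (0.64, adjusted p 0.0205). Psmd9 fell in F4/80low TAM against PEC (-0.67, adjusted p 0.00813) and rose in F4/80high TAM against F4/80low TAM (0.55, adjusted p 0.0285). Psmd5 had 0 calls and lay between -0.14 and -0.06 in the 3 comparisons.

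All 3 PA28 genes were called higher in F4/80high TAM against both PEC and F4/80low TAM, and none in F4/80low TAM against PEC, with Psme3 read by its repeat-holding probe alone. Over all genes, 25% were higher in F4/80high TAM against PEC, 18.6% against F4/80low TAM and 22.7% in F4/80low TAM against PEC. Psme1 encodes PA28α and Psme2 PA28β, which form a mixed ring in the cytoplasm, and Psme3 encodes the nuclear PA28γ. Psme1, measured by 10 spots of 1 probe, had levels of 6.58, 6.76 and 6.47 in F4/80high TAM, 5.35, 5.95 and 5.39 in F4/80low TAM and 5.40, 5.39 and 5.70 in PEC. Its F4/80high TAM arrays lay above all 6 others, and F4/80low TAM and PEC overlapped. Psme1 was 2.15-fold higher in F4/80high TAM than in PEC (1.10, SE 0.20, adjusted p 0.00172) and 2.05-fold higher than in F4/80low TAM (1.04, SE 0.20, adjusted p 0.00441). The SD between its spots on an array was 0.04 to 0.13, with 7 spots in all left out for an outlier mark, 4 of them on PEC replicate 1.

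Psme2 had levels of 8.62, 8.75 and 8.79 in F4/80high TAM, 7.14, 7.72 and 7.51 in F4/80low TAM and 6.87, 7.32 and 7.36 in PEC. Again F4/80high TAM stood above all other arrays, and F4/80low TAM overlapped PEC. Psme2 was 2.90-fold higher in F4/80high TAM than in PEC (1.54, SE 0.21, adjusted p 0.000253) and 2.40-fold higher than in F4/80low TAM (1.26, SE 0.21, adjusted p 0.00169). Its other 2 probes gave 1.52 and 1.81 against PEC. The mouse genome holds a near-identical copy, Psme2b, and whether these probes also read it was not tested. The interval of the difference between F4/80low TAM and PEC was -0.40 to 0.53 for Psme1 and -0.19 to 0.74 for Psme2.

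The rises of Psme1 and Psme2 in F4/80high TAM were called in all 21 alternatives against PEC, slide 1 alone included (1.20, adjusted p 0.026, and 1.85, adjusted p 0.00361), and in all 19 against F4/80low TAM. Within an array, the mean of both minus the mean of the 20S subunits other than Psma5, relative to PEC, was 1.11, 1.35 and 1.21 in F4/80high TAM, 0.26, 1.01 and 0.23 in F4/80low TAM and 0.06, -0.06 and 0.00 in PEC. The PA28 pair had thus shifted by more than the core subunits in every TAM array. The mean shift was 1.22 in F4/80high TAM and 0.50 in F4/80low TAM. These groups did not overlap, but F4/80low TAM replicate 2 came close to F4/80high TAM.

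The Psme3 probe read 3.84, 3.91 and 3.73 in F4/80high TAM, 2.24, 2.85 and 2.66 in F4/80low TAM and 2.39, 1.92 and 1.90 in PEC. Its F4/80high TAM arrays lay above all others. The log2 fold change was 1.76 against PEC (SE 0.21, adjusted p 0.000128) and 1.25 against F4/80low TAM (SE 0.21, adjusted p 0.00201). The medians of other probes with a run of 12 or 13 bases were 1.94 and 1.09 in these comparisons. Among the members, Psme3 had the largest log2 fold change in F4/80high TAM against PEC.

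**Figure D4:**
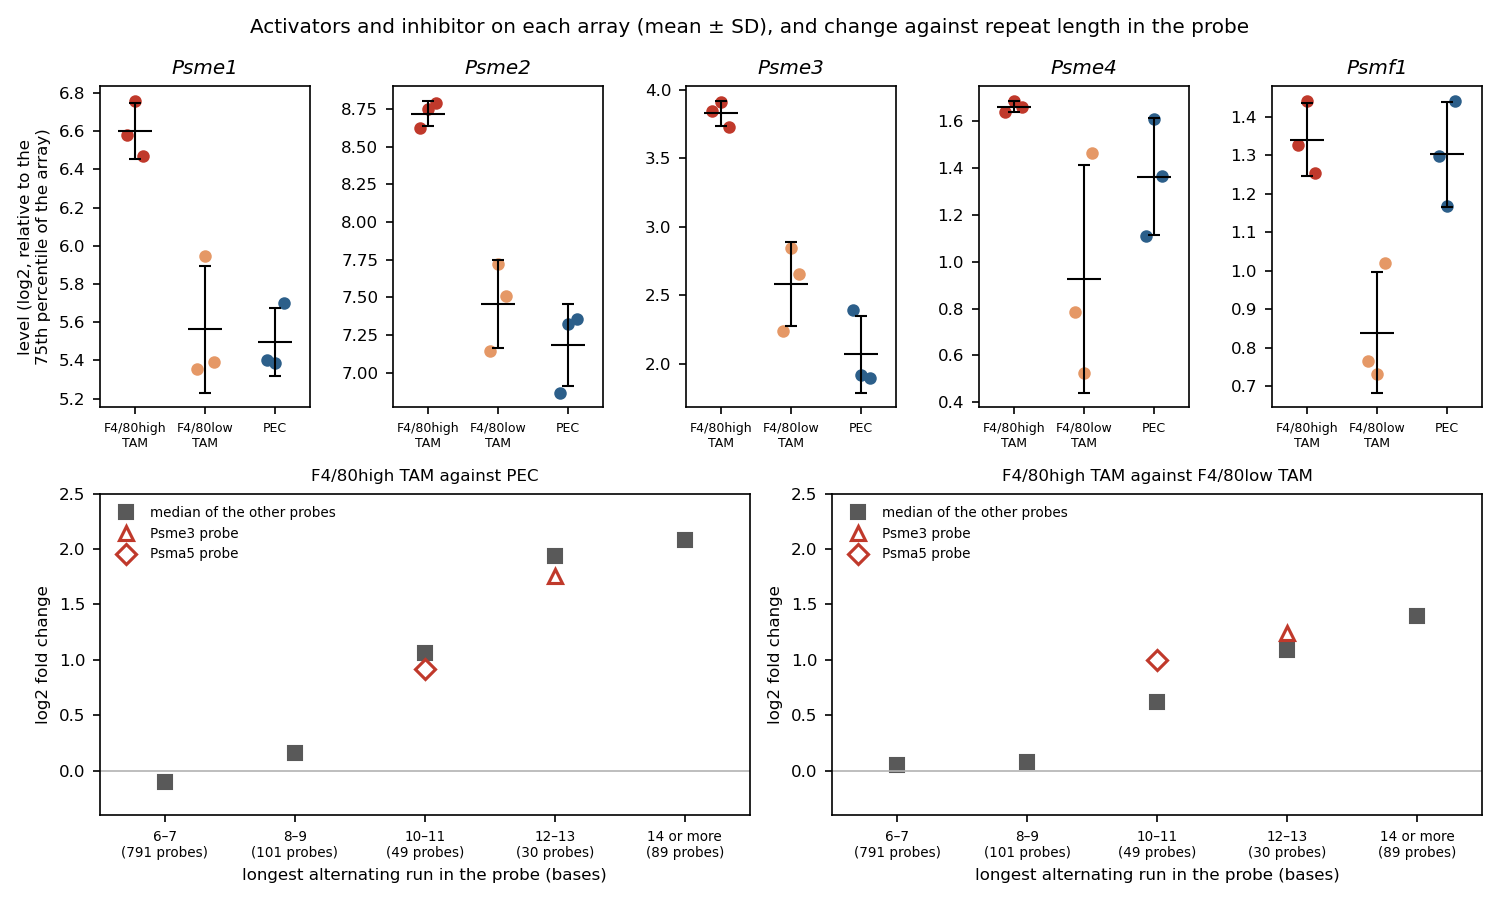
Top, levels of the activator genes Psme1 to Psme4 and of the inhibitor gene Psmf1 on each array (log2, y axis), with black bars for mean ± SD (n = 3). Bottom, median log2 fold change of probes of other genes by the length of their longest alternating run (squares) with the Psme3 and Psma5 probes beside them, in F4/80high TAM against PEC and F4/80high TAM against F4/80low TAM. The squares rise with run length, from -0.10 to 2.08 in the first of these comparisons, beside 1.76 for Psme3 and 0.92 for Psma5.

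PA200, encoded by Psme4, is a single-chain cap. Psme4 had levels of 1.64, 1.69 and 1.66 in F4/80high TAM, 0.79, 0.53 and 1.47 in F4/80low TAM and 1.11, 1.61 and 1.37 in PEC. F4/80high TAM lay above all other arrays, by a narrow margin. It was 1.67-fold higher in F4/80high TAM than in F4/80low TAM (0.74, SE 0.25, adjusted p 0.0476), a call found in 7 of 18 alternatives. Against PEC it stood at 0.30 in F4/80high TAM (interval -0.26 to 0.86) and at -0.44 in F4/80low TAM (adjusted p 0.166). A second, dimmer Psme4 probe disagreed, at 0.52 in F4/80high TAM against PEC (adjusted p 0.021 over all probes), 0.06 in F4/80low TAM against PEC and 0.46 between the TAM groups (adjusted p 0.0533).

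Psmf1 encodes PI31, known as an inhibitor of the core in vitro. It had levels of 1.33, 1.44 and 1.25 in F4/80high TAM, 0.77, 0.73 and 1.02 in F4/80low TAM and 1.30, 1.17 and 1.44 in PEC. F4/80low TAM lay below all other arrays, and F4/80high TAM overlapped PEC. Psmf1 was 1.38-fold lower in F4/80low TAM than in PEC (-0.46, SE 0.16, adjusted p 0.0366) and 1.42-fold higher in F4/80high TAM than in F4/80low TAM (0.50, SE 0.16, adjusted p 0.0397). With the replicate block neither was called (adjusted p 0.0607 and 0.0572). The first call held in 6 of 20 alternatives and the second in 5 of 18.

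Psmc3ip, the meiotic factor matched by name, was well above background on 2 F4/80high TAM arrays, 0 F4/80low TAM arrays and 3 PEC arrays. Over the measured values Psmc3ip was lower in F4/80low TAM than in PEC (-0.97, limma adjusted p 0.0241). That call held in 13 of 19 alternatives, which ranged from -1.45 to -0.03. The fall was at least 1.59-fold when the lowest detected signal of each F4/80low TAM array was taken where the probe was below it.

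The counts and sizes of the members' differences from PEC depended on the slide. On slide 1 alone, with 6 TAM arrays and 1 PEC array, 9 members were higher and 0 lower in F4/80high TAM than in PEC, against 14.6% and 15.1% of all genes, and the members' median was 0.31 beside 0.02 for all genes. Without Psma5 and Psme3, 7 were higher and 0 lower, with a median of 0.26. In F4/80low TAM against PEC 0 were higher and 3 lower, against 11.8% and 13.3% of all genes, with a median of -0.12 beside -0.08 for all genes, and the 3 were Psmb6, Psmd8 and Psmg2. This fit has a single PEC array, assumed to vary like the other groups, so the slide and that PEC sample cannot be told apart. Of the 16 members called in F4/80high TAM against PEC over all arrays, 9 were called on slide 1 alone, all 9 of them rises, and of 18 called in F4/80low TAM against PEC 3 were. No called member had the opposite sign there. The members called under every alternative were Psmd10, Psme1, Psme2 and Psme3 in F4/80high TAM against PEC, Psmb6, Psmd8 and Psmg2 in F4/80low TAM against PEC, and Psma4, Psme1, Psme2 and Psme3 in F4/80high TAM against F4/80low TAM.

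**Figure D5:**
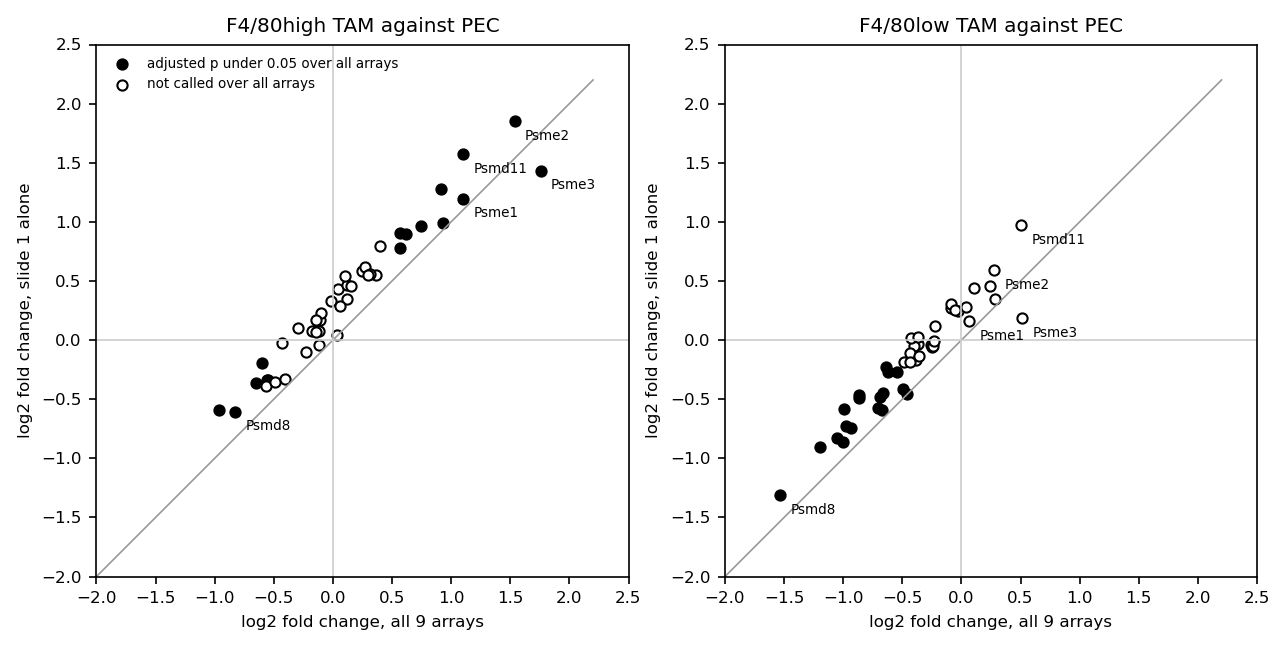
Log2 fold change of each member over all 9 arrays (x axis) and on slide 1 alone (y axis), in F4/80high TAM against PEC and F4/80low TAM against PEC, with filled points for members called over all arrays and the line of equality in grey. Most points lie above the line, so falls are smaller and rises larger on slide 1, and Psme3 lies below it in both panels.

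Genes that work around the proteasome were read from a list of 32 partners and ubiquitin-route genes, of which 29 were tested. In F4/80high TAM against PEC 4 were higher and 7 lower (25% and 28% of all genes), in F4/80low TAM against PEC 4 were higher and 10 lower (22.7% and 29.2% of all genes), and in F4/80high TAM against F4/80low TAM 4 were higher and 1 lower (18.6% and 14% of all genes). Their medians were -0.05, -0.23 and 0.15. Ddi2, the protease that activates the transcription factor Nfe2l1, fell in F4/80high TAM (-1.70, adjusted p 0.000348) and in F4/80low TAM (-1.16, adjusted p 0.0035) against PEC, while Nfe2l1, which drives proteasome genes when the particle is inhibited, stood at 0.06 and -0.10. Nfe2l2, a transcription factor of the antioxidant response, fell in both as well (-1.11, adjusted p 0.00692 in F4/80high TAM, and -1.36, adjusted p 0.00275 in F4/80low TAM). Uba6, a ubiquitin-activating enzyme, fell in F4/80low TAM against PEC (-1.32, adjusted p 0.000218) and was higher in F4/80high TAM than in F4/80low TAM (1.21, adjusted p 0.000678). Tlk2, a kinase known from chromatin assembly, rose in F4/80high TAM against PEC (2.18, adjusted p 5.86e-05), and Faf1, a cofactor of the segregase Vcp, fell (-1.14, adjusted p 0.000574). The G and T runs of the probes of this list are not given here. The part of a repeat in these values was not tested.

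Chosen from the same list after their values were seen, because they bind the particle, the cap-bound de-ubiquitinases Uchl5 and Usp14 fell in both TAM groups. Uchl5 differed from PEC by -0.71 in F4/80high TAM (adjusted p 0.0194) and -0.95 in F4/80low TAM (adjusted p 0.00529), and Usp14 by -0.51 (adjusted p 0.0426) and -0.80 (adjusted p 0.00632) in the same order. Other particle-bound genes of the list did not follow. The adaptor Ecpas rose in both (0.61, adjusted p 0.0216 in F4/80high TAM, and 0.81, adjusted p 0.00608 in F4/80low TAM), and the ubiquitin receptor Adrm1 stood at 0.23 and -0.15 with no call. Pomp, the maturation factor of the core, fell in F4/80low TAM against PEC (-0.70, adjusted p 0.00364) and was higher in F4/80high TAM than in F4/80low TAM (0.46, adjusted p 0.0373).

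Among 15 genes of the inducible proteasome and of class I peptide loading, Psmb8, Psmb9 and Psmb10 included, 11 were higher and 1 lower in F4/80high TAM against PEC, 7 higher and 2 lower in F4/80low TAM against PEC, and 10 higher and 0 lower in F4/80high TAM against F4/80low TAM, beside the same shares of all genes as above. Their median log2 fold changes were 1.83, 0.57 and 1.14. Tap1, a subunit of the peptide transporter, rose by 4.33 in F4/80high TAM and by 2.21 in F4/80low TAM against PEC (adjusted p 3.09e-06 and 0.000188). Nlrc5, the activator of class I genes, rose by 4.77 and 2.79 (adjusted p 0.000105 and 0.00288), and Irf1, a transcription factor of interferon responses, by 4.26 and 3.44 (adjusted p 1.5e-06 and 6.64e-06). Calr, a chaperone of class I folding, was the gene that fell in both (-0.86, adjusted p 0.0177, and -0.96, adjusted p 0.0113). Both comparisons against PEC use the same PEC arrays.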

How the data were processed

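Total RNA of 9 samples was labelled with Cy3 and hybridised to Agilent arrays. The deposited scanner files hold linear intensity per spot, background-subtracted by Agilent Feature Extraction 10.5.1.1, per the file headers; the deposited value table holds log2 values whose normalization is not given in the sources used here, and served as an alternative. Well above background were 36.1% to 38.3% of the 59305 spots that are no controls, 0 spots were saturated, and outliers were left out. The log2 intensity minus the array's 75th percentile was averaged over the spots of a probe. A probe was kept when well above background on all 3 arrays of a group, and the brightest probe stood for a gene. All 9 arrays were fitted with limma 3.58.1 in R 4.3.3 (two-sided, Benjamini-Hochberg within a comparison, tested on simulated data). The number of arrays limits the precision, and the median SE was 0.24. Members and lists were chosen with earlier results of these data known; the genes given with every array's value were the Psme and Psmf genes and, per comparison, the 5 largest called rises and falls. Slide numbers come from the file headers. Same-numbered F4/80high and F4/80low TAM samples deviated together (r = 0.23, 0.17 and 0.13 across genes), and PEC samples did not pair. Alternatives covered scaling, background, filters, slide, pairing and leaving out arrays. For pairing, the replicate block matched same-numbered samples. In the comparisons against PEC it took in the PEC samples too, although these did not pair.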

Additional observations from a re-analysis of the deposited data

How the results depend on the processing

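With 3 arrays a group, the counts of calls moved with the scaling and the slide; the cause was not tested. In F4/80high TAM against PEC, 4 were higher with median centring and 4 in the deposited value table, which holds 16 members. Over all genes, 17.9% and 33.5% were higher in these. The number lower was 3 with median centring and 0 with the slide as a block, against 27.3% and 17.7% of all genes. The median turned to -0.06 with quantile normalization, -0.12 with median centring, -0.16 with normexp and -0.31 in the value table, and was 0.31 by slide. Leaving out 1 array gave 5 to 10 higher, 2 to 8 lower and medians of -0.14 (without PEC replicate 1) to 0.14. Over all genes, 19.8% to 25.6% were higher and 22.8% to 29.1% lower in those fits.

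In F4/80low TAM against PEC, 3 were higher with quantile normalization, 3 with the 75th percentile over detected probes and 2 in the value table; 11 were lower in the value table and 3 by slide. Medians were -0.89 with median centring, -0.18 with the detected-probe percentile, -0.63 with normexp and -0.12 by slide. Leaving out 1 array gave 0 to 1 higher and 9 (without PEC replicate 3) to 22 lower. Over all genes, 17.6% to 23.1% were higher and 22.5% to 28.7% lower in those fits.

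In F4/80high TAM against F4/80low TAM, 5 were higher with quantile normalization, 6 with the detected-probe percentile, 7 without the filter on dim probes and 9 in the value table, with medians of 0.28 (quantile), 0.83 (median centring) and 0.27 (detected-probe percentile). Leaving out 1 array gave 5 (without F4/80high TAM replicate 2) to 19 higher.

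A sign turned under at least 1 alternative for 17 members in F4/80high TAM against PEC, 15 in F4/80low TAM against PEC and 8 between the TAM groups, 0 of them called. Among the activator and inhibitor genes these were Psmf1 in F4/80high TAM against PEC (-0.12 with median centring, -0.081 with normexp, -0.029 to 0.11 when 1 array was left out), Psme1 in F4/80low TAM against PEC (-0.41 with median centring, -0.21 with normexp, -0.13 to 0.17 when 1 array was left out) and Psme2 there (-0.20 with median centring). The replicate block kept 14 of 16 calls in F4/80high TAM against PEC (not Psma6 and Psmg4), 16 of 18 in F4/80low TAM against PEC (not Psmd2 and Psmf1) and 13 of 16 between the TAM groups (not Psmb6, Psmc6 and Psmf1). Median centring shifted the median of all genes to -0.16, -0.56 and 0.40, so its counts are relative to those shifts. The within-array differences and the counts without Psma5 and Psme3 were chosen after seeing the data. In the main fit these counts were within 1.5 times the full ones. Some alternatives differed by more, such as 3 instead of 5 higher in F4/80high TAM against PEC without PEC replicate 1.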

Other observations

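The alternating G and T repeat that limits Psme3 and Psma5 had a counterpart on the complementary letters. Of 76 kept probes with an alternating C and A run of 10 bases or more, 4 were higher and 14 lower in F4/80high TAM against PEC, with a median log2 fold change of -0.38, and their median was 0.77 in F4/80low TAM against PEC and -1.16 in F4/80high TAM against F4/80low TAM. Probes with a G and T run of 14 bases or more had medians of 2.08, 0.64 and 1.39 in the same comparisons. The 2 kinds of probe thus differed in direction between the TAM groups, and the source of either signal was not tested.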
